A study of Rattus norvegicus with 43 samples.

Results

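Liver transcripts were compared between rats fed 9-cis retinoic acid (9cRA) and rats fed 4-hydroxyphenylretinamide (4HPR), by taking every liver array that the titles assign to these agents. This gave 4 arrays of 9cRA livers and 4 of 4HPR livers, 8 of the 43 arrays of the study, and all probe sets other than the manufacturer's controls. The 9cRA group received 100 mg per kg diet, the 4HPR group 782 mg per kg diet, and the diet group no agent, all for 7 days from the age of 100 days. A further group, Targretin, was gavaged with 60 mg per kg body weight; its 3 arrays entered the estimate of the spread and the filter on low signal and no comparison. The animals were outbred Sprague-Dawley females, and the liver was labelled as normal tissue. Because dose and agent changed together, a difference between 9cRA and 4HPR livers cannot be told apart from a difference in dose. Nothing in the labels ties each array to its own animal, so the p-values measure only the spread between arrays, which may be technical.

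Retinoids act mainly through nuclear receptors: the retinoic acid receptors and the retinoid X receptors, which pair with one another and with receptors for fatty acids, bile acids and drugs. 9cRA is an isomer of retinoic acid with a free carboxyl group and binds both kinds of receptor. 4HPR, or fenretinide, carries an amide-linked hydroxyphenyl ring in place of the free carboxyl group, binds the classical receptors weakly and has effects that do not need them. The liver stores retinol, oxidises retinoic acid through CYP26 enzymes, and makes most of the enzymes that clear drugs and foreign compounds.

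Of 6071 probe sets that passed the filter on low signal, 10 differed between 9cRA and 4HPR livers at a Benjamini-Hochberg adjusted p under 0.05 in limma, or 0.165%. Of these, 9 were lower with 9cRA (0.148%) and 1 was higher (0.0165%), and the 9 covered 7 genes. At an unadjusted p under 0.05, 722 probe sets differed (11.9%), 243 lower and 479 higher. The signals of the 2 groups did not overlap for 375 probe sets (6.18%), with 9cRA lower in 128 (2.11%) and higher in 247 (4.07%). The median difference over all probe sets was 0.0763 on the log2 scale, and quantile normalization moved it to -0.0038 and the unadjusted split to 314 lower and 308 higher. Leaving out 9cRA array 2 left 3 calls and leaving out 4HPR array 3 left 4, while 18 passed without 9cRA array 4. Among the 141 probe sets (2.32%) whose difference was larger than 2-fold, 91 were higher with 9cRA and 50 were lower. For 4157 probe sets (68.5%) the whole 95% interval of the difference lay within 2-fold either way. All differences are 9cRA minus 4HPR on a log2(signal + 38.1) scale unless another pair is named, and a fold on this scale understates the change of dim probe sets.

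**Figure D1:**
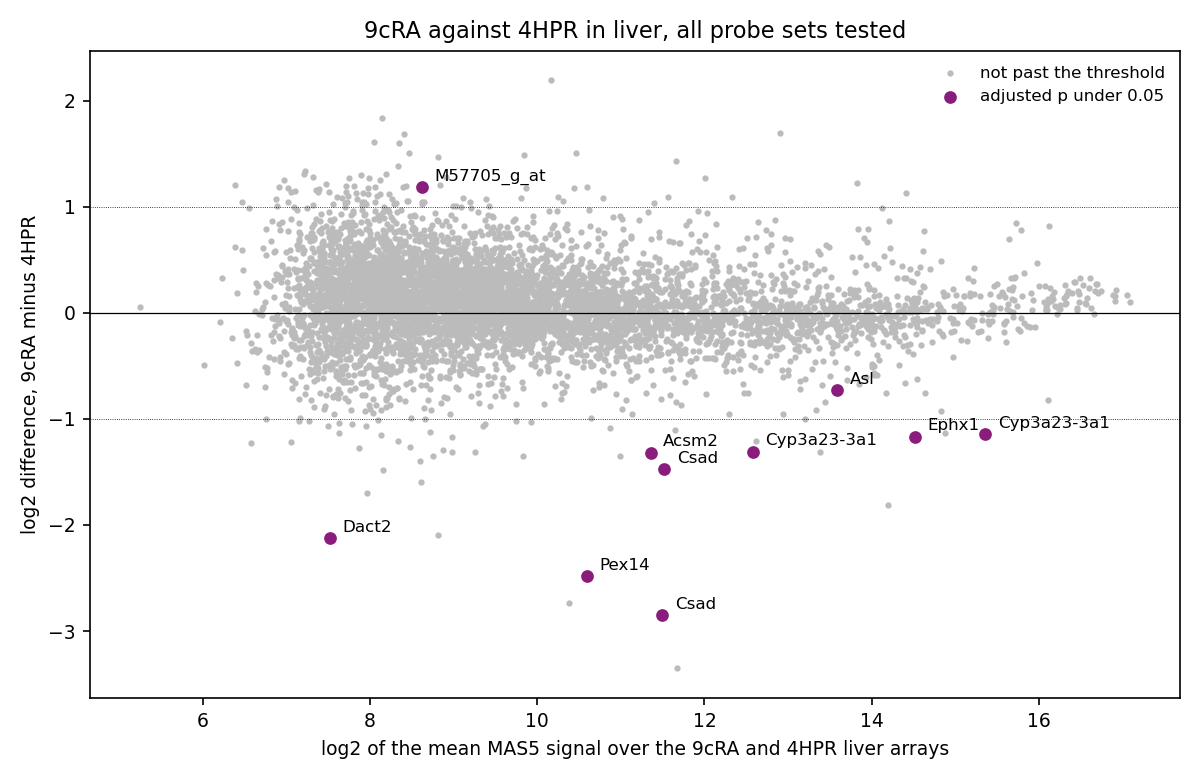
Log2 difference of 9cRA minus 4HPR in liver (vertical) against log2 of the mean MAS5 signal over the 8 arrays (horizontal), 1 point for each of 6071 probe sets; dotted lines mark 2-fold. The 10 probe sets past the threshold are coloured, 9 of them below 0, and their range of signal runs from Dact2 at the dim end to Cyp3a23-3a1 at the bright end.

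The largest called difference belonged to Csad, on chromosome 7, which encodes cysteine sulfinic acid decarboxylase, an enzyme of taurine synthesis. Its probe set M64755_at read 820, 495.9, 489 and 874 in 9cRA livers, against 5824.8, 2928.6, 5231.2 and 6412.6 in 4HPR livers. Every 9cRA array lay below every 4HPR array, and the 4 diet arrays, from 1047.7 to 2018.7, lay between the groups. The means were 669.7 ± 205.9 in 9cRA livers and 5099.3 ± 1525.4 in 4HPR livers (SD, n = 4 each), a difference of -2.85 (SE 0.26, 95% interval -3.40 to -2.30, adjusted p = 2.67e-05), or 7.2-fold lower with 9cRA. Against diet livers both agents passed the test for M64755_at, in opposite directions: 9cRA was lower by -1.17 (SE 0.26, adjusted p = 0.0141) and 4HPR was higher by 1.68 (SE 0.26, adjusted p = 0.00352). A second probe set of the gene, E13557cds_s_at, was also lower with 9cRA, at 1472.5 ± 336.0 in 9cRA livers and 4393.2 ± 1805.8 in 4HPR livers (difference -1.47, SE 0.28, adjusted p = 0.0382). Against diet this probe set was at -0.27 for 9cRA (adjusted p = 0.667) and 1.20 for 4HPR (adjusted p = 0.0255), each with an SE of 0.28, so the lower 9cRA level against diet rests on M64755_at. Its groups did not overlap, but the gap was narrow, since the highest 9cRA array read 1862.5 and the lowest 4HPR array, number 2, read 2115. The call of M64755_at held in all 23 alternatives, with an adjusted p of at most 0.00146. That of E13557cds_s_at held in 9 and was lost without any 1 of 9cRA arrays 1, 2 and 3 (adjusted p = 0.0515, 0.0957 and 0.131), 4HPR arrays 1, 3 and 4 (0.0949, 0.109 and 0.085), diet arrays 2 and 3 (0.0627 and 0.0628) or Targretin arrays 1 and 2 (0.0576 and 0.0566), in the fit of only 9cRA and 4HPR arrays (0.159), without a variance trend (0.0847) and without 9cRA array 1 and 4HPR array 4 together (0.084).

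Cyp3a23-3a1, on chromosome 12, encodes a CYP3A cytochrome P450 that oxidises steroids and drugs and is a classical target of the pregnane X receptor, itself a partner of the retinoid X receptors. Probe set D13912_s_at read 31616.8, 24342.4, 20441.4 and 28848 in 9cRA livers, against 46643.6, 64238.6, 58888.9 and 61089.4 in 4HPR livers. The 9cRA arrays lay around the diet arrays (23719.8 to 28575.1), and all 4HPR arrays were above both. The difference was -1.14 (SE 0.15, 95% interval -1.45 to -0.83, adjusted p = 0.00171), or 2.21-fold, and the call held in all 23 alternatives. Against diet livers, 9cRA differed by -0.01 (SE 0.15, adjusted p = 0.981) and 4HPR by 1.13 (SE 0.15, adjusted p = 0.00128). Of its other probe sets, L24207_r_at passed (-1.31, SE 0.24, adjusted p = 0.0279), while L24207_i_at (-0.95, SE 0.20, adjusted p = 0.07) and X64401cds_s_at (-0.82, SE 0.20, adjusted p = 0.144) were lower without passing. The call of L24207_r_at held in 13 of 23 alternatives and was lost without any 1 of 9cRA arrays 1, 2 and 3 (adjusted p = 0.0701, 0.0717 and 0.0854) or 4HPR arrays 2, 3 and 4 (0.106, 0.103 and 0.0708), after quantile normalization (0.0608), without a variance trend (0.0766), without 9cRA array 1 and 4HPR array 4 together (0.11) and in the fit of only 9cRA and 4HPR arrays (0.132). Probe sets whose names end in _s_at can bind related transcripts, so the signal of closely similar CYP3A genes cannot be told apart from that of Cyp3a23-3a1.

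The bases before the transcription start are shown for the 2 genes with the smallest p-values, because pairs of the nuclear receptor core site AGNTCA, in direct repeat, are the sequences to which retinoid X receptor pairs bind. Both are from RefSeq on the GRCr8 assembly and lie on the minus strand, Cyp3a23-3a1 at chr12:14398804-14399053 and Csad at chr7:135215582-135215831. Capitals mark a match, on either strand, to AGNTCA followed by any 3 bases and a second AGNTCA.
Cyp3a23-3a1: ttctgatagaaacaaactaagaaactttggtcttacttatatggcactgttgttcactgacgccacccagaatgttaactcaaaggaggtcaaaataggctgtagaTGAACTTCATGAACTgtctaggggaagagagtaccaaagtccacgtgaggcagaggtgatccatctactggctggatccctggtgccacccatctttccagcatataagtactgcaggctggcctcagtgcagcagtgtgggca
Csad: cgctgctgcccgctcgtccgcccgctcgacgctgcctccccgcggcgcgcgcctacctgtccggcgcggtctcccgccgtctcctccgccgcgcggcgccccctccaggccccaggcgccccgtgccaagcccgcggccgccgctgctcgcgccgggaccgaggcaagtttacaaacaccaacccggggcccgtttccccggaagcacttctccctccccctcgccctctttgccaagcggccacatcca
The match in Cyp3a23-3a1, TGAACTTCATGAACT, begins 144 and ends 130 bases before the start. The same motif occurred in 20 of 33469 promoter windows of 250 bases (0.0598%). The Csad window held no match to it, nor to the same pair with any 1, 4 or 5 bases between, which 0.131%, 0.0538% and 0.0747% of windows held. The windows found for the other called genes, Pex14, Ephx1, Dact2, Acsm2 and Asl, held no match to any of these motifs either. A match describes these letters and is not a measured site.

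Further enzymes were lower with 9cRA. Ephx1, on chromosome 13, encodes microsomal epoxide hydrolase, which hydrates reactive epoxides. It read 17299.5, 10241.2, 11934.7 and 19452 in 9cRA livers, against 30617.6, 29878.4, 30196.4 and 38123.9 in 4HPR livers, with no overlap. The difference was -1.17 (SE 0.18, 95% interval -1.56 to -0.78, adjusted p = 0.012). The diet arrays (19294 to 25897.3) lay between the groups, except for number 2, which was below the highest 9cRA array, and 9cRA passed against diet (-0.68, SE 0.18, adjusted p = 0.0406) while 4HPR did not (0.49, SE 0.18, adjusted p = 0.166). Leaving out 9cRA array 2 gave Ephx1 an adjusted p of 0.0525 and the fit of only 9cRA and 4HPR arrays gave 0.0917; the call held without any other single array.

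Acsm2, on chromosome 1, encodes a mitochondrial acyl-CoA synthetase for medium-chain acids. Its signal was 1476.9, 1549.2, 1170.3 and 1577.4 in 9cRA livers, against 3585.6, 2359.9, 3596.7 and 5692.8 in 4HPR livers. The 9cRA arrays sat among the diet arrays (1179.5 to 1913.8), below every 4HPR array. The difference was -1.32 (SE 0.23, adjusted p = 0.0182), with -0.07 (adjusted p = 0.926) for 9cRA minus diet and 1.25 (adjusted p = 0.00696) for 4HPR minus diet, each with an SE of 0.23. The call of Acsm2 held in 15 of 23 alternatives and was lost without 9cRA array 1, 2 or 3 (adjusted p = 0.0515, 0.0616 and 0.0814) or 4HPR array 1 or 3 (0.0569 and 0.0842), in the fit of only 9cRA and 4HPR arrays (0.0963) and without 9cRA array 1 and 4HPR array 4 together (0.082).

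Asl, on chromosome 12, encodes argininosuccinate lyase of the urea cycle. Probe set D13978_s_at read 12116.8, 7122.3, 8395.6 and 9836.9 in 9cRA livers, against 14067.7, 15137.2, 15308.6 and 16664.1 in 4HPR livers. Here the 4HPR arrays overlapped the diet arrays (15298.3 to 17488) and the 9cRA arrays lay below both. The difference was -0.73 (SE 0.14, adjusted p = 0.042), with -0.82 (SE 0.14, adjusted p = 0.00301) for 9cRA minus diet and -0.09 (SE 0.14, adjusted p = 0.787) for 4HPR minus diet. A second Asl probe set, AB016536_s_at, was at -0.38 (SE 0.15, adjusted p = 0.334), with overlapping groups. Of the called probe sets, D13978_s_at was the least stable, with 6 of 23 alternatives keeping the call. Its adjusted p was above 0.05 without any 1 of 9cRA arrays 2 and 3 (0.0957 and 0.137), 4HPR arrays 1 to 4 (0.0643, 0.106, 0.109 and 0.0864), diet arrays 1 to 4 (0.0627, 0.0627, 0.0755 and 0.0577) or Targretin arrays 1 and 2 (0.0576 and 0.0681). It was also above 0.05 after quantile normalization (0.0793), with no filter (0.0531), without a variance trend (0.138) and in the fit of only 9cRA and 4HPR arrays (0.195).

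Pex14, on chromosome 5, encodes the peroxisomal membrane protein at which imported enzymes dock. Its probe set AB017544_g_at read 394, 310, 695.9 and 419.2 in 9cRA livers, against 2921.8, 2358.7, 2171.7 and 3087.8 in 4HPR livers. The gap between the groups was wide, and diet arrays ranged from 498.4 to 2138.3. The difference was -2.48 (SE 0.34, 95% interval -3.19 to -1.77, adjusted p = 0.00219) and passed in all 23 alternatives. The other Pex14 probe set, AB017544_at, disagreed: it averaged 1834.2 ± 429.3 in 9cRA livers and 1758.0 ± 222.1 in 4HPR livers (difference 0.04, SE 0.19, adjusted p = 0.95), and this near-zero difference was negative without 9cRA array 1 (-0.07) or 4 (-0.04) or 4HPR array 3 (-0.0050) or 4 (-0.02). With one probe set at 5.58-fold and the other showing a 95% interval of -0.36 to 0.43, the data do not settle the level of the Pex14 transcript as a whole.

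Dact2, on chromosome 1, encodes a Dishevelled-binding protein of the Wnt pathway. It read 42, 35.9, 57.2 and 32 in 9cRA livers, which is close to the 10th percentile of all signals (38.1), against 297.8, 184.6, 323.1 and 494.4 in 4HPR livers. Diet livers held both kinds of value, at 188.4, 78.6, 191.2 and 51.1. The probe set entered the test through 3 4HPR and 3 Targretin arrays, with 0 of the 9cRA and 0 of the diet arrays above the filter. The fitted difference was -2.13 (SE 0.34, adjusted p = 0.0127); its size depends on the pseudocount, and neither agent passed against diet (9cRA -0.94, adjusted p = 0.129; 4HPR 1.18, adjusted p = 0.0759). The call of Dact2 was lost without 9cRA array 2 (adjusted p = 0.0525) or 4HPR array 3 (0.0666), in the fit of only 9cRA and 4HPR arrays (0.0963) and without 9cRA array 1 and 4HPR array 4 together (0.084). A pseudocount 4 times larger brought the difference to -1.26.

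The single probe set higher with 9cRA in liver, M57705_g_at, has no gene in the annotation used and is named here after its values were seen. It also passed as higher with 9cRA in lung (difference 1.32, SE 0.32, adjusted p = 0.0465), in the limma fit of all organs. It read 593.1, 584.6, 490 and 568.3 in 9cRA livers, against 315.3, 177.9, 170 and 257.6 in 4HPR livers (difference 1.19, SE 0.20, adjusted p = 0.0182). The 9cRA arrays stood near the diet arrays (441.8 to 551.9), and 4HPR was lower than diet (SE 0.20, adjusted p = 0.0124), whose mean was 487.8 ± 48.0, beside 230.2 ± 69.2 with 4HPR (SD, n = 4 each). Its call held in 15 of 23 alternatives; it was lost after quantile normalization (adjusted p = 0.0758) and without 9cRA array 1 or 2 (0.0655 and 0.0659) or 4HPR array 2 or 3 (0.0659 and 0.0921), in the fit of only 9cRA and 4HPR arrays (0.136) and without 9cRA array 1 and 4HPR array 4 together (0.082).

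**Figure D2:**
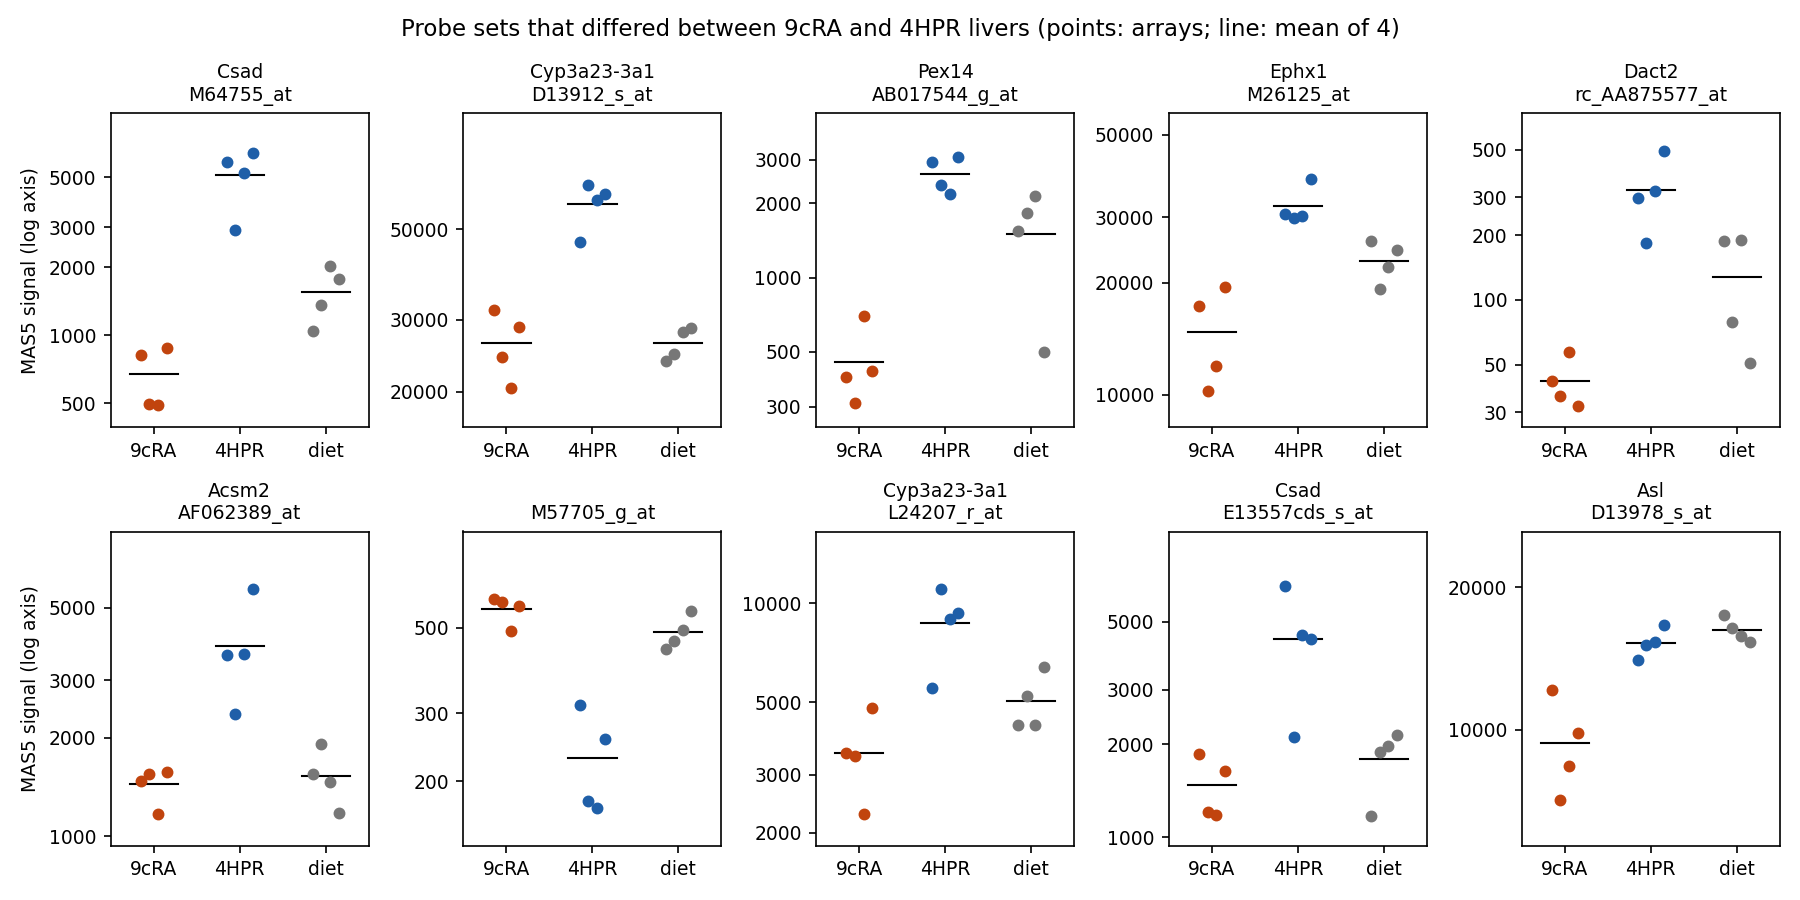
MAS5 signal on a log axis for the 10 probe sets past the threshold, 1 point an array and a line at the mean of 4, in 9cRA, 4HPR and diet livers. In 9 panels all 9cRA points lie below all 4HPR points; in the panel of M57705_g_at they lie above them.

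No gene with a symbol in the annotation was higher with 9cRA past the threshold, so the 5 with the smallest p-values are given as values. Sorbs2, an adaptor protein of the actin cytoskeleton, read 500.4, 552.6, 667.8 and 439.5 in 9cRA livers, against 245, 204.3, 296.8 and 234.5 in 4HPR livers (difference 1.02, SE 0.22, adjusted p = 0.0763). Igf1r, the receptor of insulin-like growth factor 1, read 421.2, 462.4, 458.4 and 573 in 9cRA livers, against 164.8, 252.9, 267 and 170.6 in 4HPR livers (1.05, SE 0.24, adjusted p = 0.0996). Neither gene's groups overlapped. Kynu, kynureninase of tryptophan breakdown, averaged 8663.4 ± 1170.5 in 9cRA livers and 5556.5 ± 847.7 in 4HPR livers (0.64, SE 0.14, adjusted p = 0.1). Fabp7, the brain-type fatty acid-binding protein, averaged 1311.2 ± 397.1 in 9cRA livers and 547.3 ± 128.6 in 4HPR livers (1.18, SE 0.27, adjusted p = 0.101). Crot, which passes medium-chain acyl groups from peroxisomes to carnitine, averaged 2062.7 ± 309.8 in 9cRA livers and 1074.4 ± 392.4 in 4HPR livers (0.97, SE 0.23, adjusted p = 0.113). In each of the 3 the groups did not overlap. Sorbs2 passed in the fit without a variance trend (adjusted p = 0.0436), Fabp7 without 9cRA array 4 (0.0307) and Crot without 4HPR array 1 (0.0279).

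Both agents were also set against the same 4 diet arrays. In that fit 313 probe sets (5.16%) passed for 9cRA and 169 (2.78%) for 4HPR. Since both share the diet arrays, their values are given side by side only. Fabp7 was at -0.25 (adjusted p = 0.677) for 9cRA and -1.43 (adjusted p = 0.00819) for 4HPR, each with an SE of 0.27. Crot was at 1.23 (adjusted p = 0.00457) for 9cRA and 0.26 (adjusted p = 0.567) for 4HPR, each with an SE of 0.23. Kynu was at 0.47 (adjusted p = 0.067) for 9cRA and -0.17 (adjusted p = 0.57) for 4HPR. Igf1r was at 0.67 and -0.38 and Sorbs2 at 0.36 and -0.67 for 9cRA and 4HPR, and none of these 4 values passed. Csad passed for each agent with opposite signs through M64755_at, but for 4HPR alone through E13557cds_s_at.

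**Figure D3:**
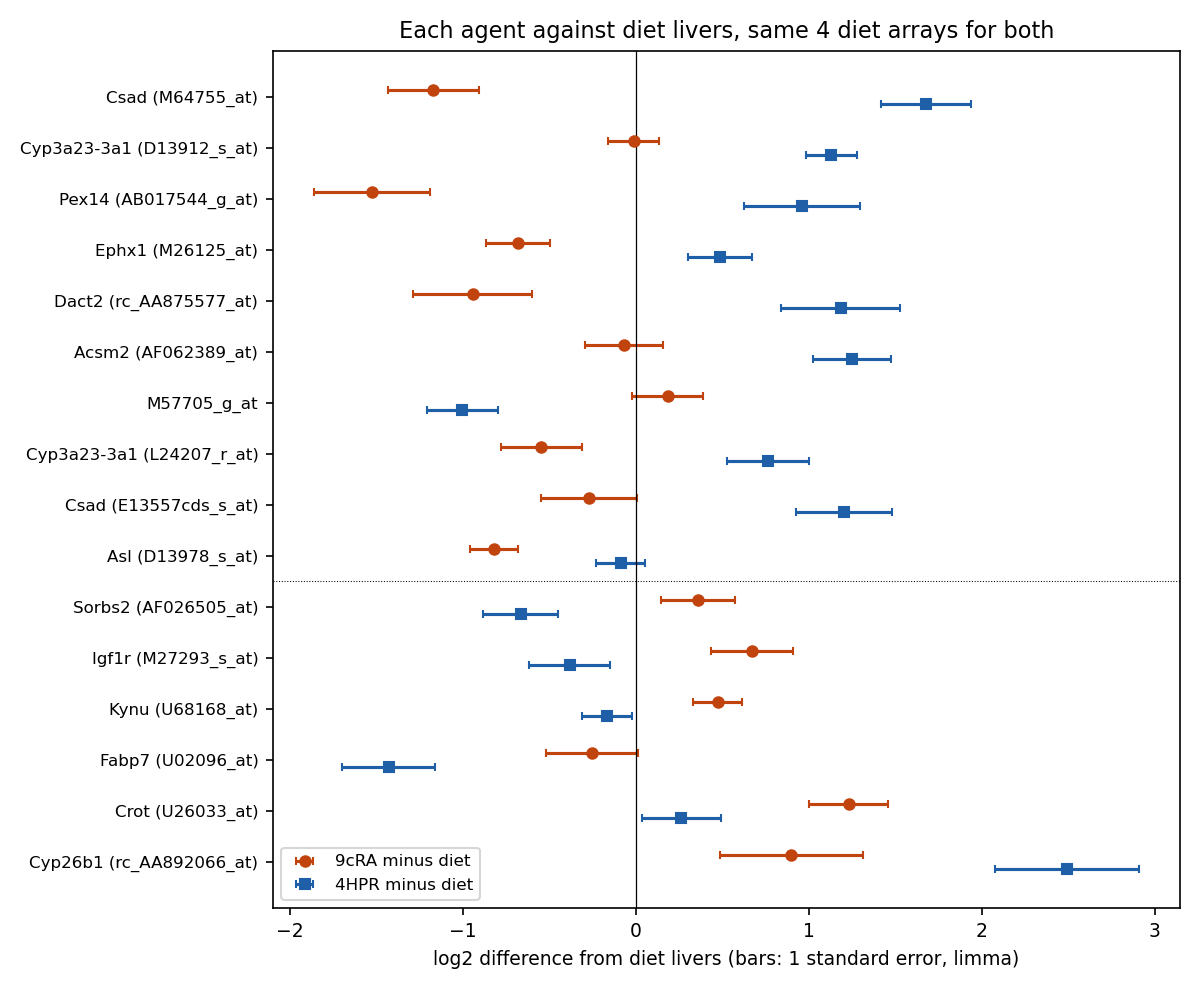
Log2 difference from diet livers for 9cRA (circles) and 4HPR (squares), with bars of 1 standard error from limma; the 4 diet arrays are shared. Above the dotted line are the 10 probe sets past the threshold between the agents, where 4HPR stands to the right of 9cRA in 9, and below it are the 5 named genes higher with 9cRA and Cyp26b1, which did not pass between the agents.

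The members of 28 pathway lists were then counted, with the probe set of highest mean liver signal for each gene. Of 612 list genes, 4 passed, all lower with 9cRA, beside 0.165% of all probe sets (0.148% lower): Csad and Asl among 49 amino acid and urea cycle genes, Acsm2 among 24 genes of fatty acid uptake and activation, and Ephx1, which stands in 2 lists. This count was 0 without 9cRA array 2, 1 without 9cRA array 3 or 4HPR array 3, and 7 without 9cRA array 4; it was 2 without 4HPR array 1 or 4, diet array 2 or 3, or Targretin array 1 or 2. List medians ran from -0.31 to 0.27, beside 0.08 over all probe sets, and 5 of the 28 lay above that value. Leaving out single arrays gave medians of both signs in 15 of the 28 lists.

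Enzymes of drug clearance held the lowest median. Of 11 flavin monooxygenases, epoxide hydrolases and carboxylesterases, 1 was lower with 9cRA, 0 were higher and 10 did not pass, with a median of -0.31; leaving out single arrays moved it between -0.41 (9cRA array 4) and -0.13 (9cRA array 3). Ephx1 was the member that passed. Ces1d, a carboxylesterase that splits esters and lipids, was at -0.61 (SE 0.16, adjusted p = 0.154), with 8543.1, 6433.7, 5678.5 and 4606.1 in 9cRA livers, against 8348, 8996, 10631.4 and 9825.7 in 4HPR livers. Its groups overlapped through 9cRA array 1, without which the difference was -0.77 (adjusted p = 0.0476). Fmo1, a flavin monooxygenase, averaged 4338.6 ± 645.9 in 9cRA livers and 6944.9 ± 1141.0 in 4HPR livers, without overlap (-0.67, SE 0.19, adjusted p = 0.192). Against diet, Ces1d passed for 9cRA (-0.79, adjusted p = 0.00738) and was at -0.19 for 4HPR (adjusted p = 0.563), and Fmo1 was at 0.38 for 9cRA (adjusted p = 0.287) and passed for 4HPR (1.06, adjusted p = 0.00676).

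None of 22 drug P450s and regulators passed through its brightest probe set, including Cyp3a23-3a1, whose called probe sets were dimmer ones. Their median was -0.07, with 4 lower and 1 higher at an unadjusted p under 0.05, where 243 of all 6071 probe sets were lower and 479 higher. Cyp3a18, another CYP3A enzyme, averaged 596.9 ± 115.9 in 9cRA livers, 1119.3 ± 226.3 in 4HPR livers and 1264.1 ± 154.3 in diet livers. The 9cRA and 4HPR arrays did not overlap (-0.86, SE 0.21, adjusted p = 0.128), and the value against diet passed for 9cRA (-1.04, adjusted p = 0.00738) and was at -0.18 for 4HPR (adjusted p = 0.684). The 2 CYP3A genes thus had unlike values against diet: Cyp3a23-3a1, through D13912_s_at, stood at the diet level with 9cRA and above it with 4HPR, and Cyp3a18 stood below it with 9cRA. L24207_i_at and X64401cds_s_at also passed for 4HPR (0.93, adjusted p = 0.0149 and 1.04, adjusted p = 0.00989) and not for 9cRA (-0.02 and 0.23). L24207_r_at passed for neither, at -0.55 for 9cRA (adjusted p = 0.21) and 0.76 for 4HPR (adjusted p = 0.092). Conjugating enzymes gave a median of -0.02 over 16 genes, none of which passed. Sult1b1, a sulfotransferase, averaged 13765.4 ± 826.6 in 9cRA livers and 19755.6 ± 4145.5 in 4HPR livers (-0.50, SE 0.16, adjusted p = 0.248). Ugt2b1, a glucuronosyltransferase, averaged 6320.3 ± 1154.1 in 9cRA livers and 9305.5 ± 2139.4 in 4HPR livers (-0.54, SE 0.18, adjusted p = 0.251).

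Glutathione transferases and related genes numbered 24, with a median of -0.03, and none passed. Gstm1 read 19398.2, 12773.5, 13949.7 and 21386 in 9cRA livers, against 29060.3, 26800.7, 25601.6 and 23521.3 in 4HPR livers (-0.67, SE 0.15, adjusted p = 0.0996). Its groups did not overlap, and it passed without 9cRA array 4 (-0.79, adjusted p = 0.0307). Against diet, Gstm1 was at -0.88 for 9cRA (adjusted p = 0.00289) and -0.22 for 4HPR (adjusted p = 0.459). Gsta3 averaged 8396.2 ± 1455.4 in 9cRA livers and 13372.6 ± 871.1 in 4HPR livers (-0.68, SE 0.17, adjusted p = 0.147). Of 17 antioxidant genes and NRF2 targets, Ephx1 was lower, 0 were higher and 16 did not pass. Hmox2, a heme oxygenase, averaged 753.0 ± 118.3 in 9cRA livers and 1407.8 ± 293.9 in 4HPR livers, without overlap (-0.86, SE 0.19, adjusted p = 0.0884), and Prdx3, a mitochondrial peroxidase, was at 0.37 (SE 0.13, adjusted p = 0.313).

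Mitochondrial fatty acid oxidation genes had the highest list median. None of 26 passed, 8 had an unadjusted p under 0.05, all higher with 9cRA, and the median was 0.27, between 0.21 and 0.29 without single arrays. Over all probe sets tested, 479 of 6071 were higher at that level. Acadm, the medium-chain acyl-CoA dehydrogenase, read 10814, 10355.8, 10644.1 and 8689.5 in 9cRA livers, against 7061.8, 7132.1, 8002.4 and 7708.4 in 4HPR livers (0.43, SE 0.12, adjusted p = 0.192). Hadhb, a subunit of the mitochondrial trifunctional protein, read 4918, 4418.9, 3681.5 and 3794.5 in 9cRA livers, against 3045.4, 2951.4, 3273.2 and 2785.4 in 4HPR livers (0.47, SE 0.13, adjusted p = 0.192). Both genes had groups that did not overlap. Against diet, Acadm was at -0.21 for 9cRA (adjusted p = 0.365) and -0.64 for 4HPR (adjusted p = 0.00794), and Hadhb was at -0.18 for 9cRA (adjusted p = 0.495) and -0.65 for 4HPR (adjusted p = 0.0122). The list's medians against diet were 0.00 for 9cRA and -0.24 for 4HPR.

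Other lipid lists were nearer to the median of all probe sets. The 22 peroxisomal genes had a median of 0.03, and none passed through its brightest probe set, including Pex14, whose called probe set is not the one that stands for it here. Abcd3, a peroxisomal fatty acid transporter, read 20002.9, 14214.5, 16605.9 and 24427 in 9cRA livers, against 15127.2, 13333.5, 10684 and 1764 in 4HPR livers (1.22, SE 0.46, adjusted p = 0.328). Most of its spread came from 4HPR array 4; all 8 arrays but that one were above the diet arrays (3950.2 to 4734.1). Acot1, an acyl-CoA thioesterase, read 225, 31.8, 38.3 and 171.6 in 9cRA livers, against 178.5, 205.7, 988.2 and 1754.1 in 4HPR livers (-2.09, SE 0.58, adjusted p = 0.192), where 2 of the 4HPR arrays were within the range of the 9cRA arrays. Fabp1, the liver fatty acid-binding protein, averaged 59287.3 ± 5387.3 in 9cRA livers and 47407.5 ± 8082.6 in 4HPR livers (0.33, SE 0.13, adjusted p = 0.336).

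The 15 cholesterol synthesis genes had a median of -0.10 and the 14 lipogenic genes one of 0.05, and none passed. Insig1, which holds back transcription of cholesterol synthesis genes, read 8101, 7064.6, 7812.3 and 5782.8 in 9cRA livers, against 14219.9, 12828.2, 12642.3 and 14442.9 in 4HPR livers (-0.92, SE 0.21, adjusted p = 0.107). Its groups were far apart, and it passed in the fit of the 8 compared arrays alone (adjusted p = 0.0455); the diet arrays ranged from 6550.7 to 12300.2. Pnpla3, a lipid droplet hydrolase, was at -1.13 (SE 0.44, adjusted p = 0.337). Of 25 bile acid genes none passed. Cyp7a1, the rate-limiting enzyme of bile acid synthesis, read 12140, 3248.6, 2194.2 and 10459.3 in 9cRA livers, against 13264.8, 8233.8, 18543 and 17324.7 in 4HPR livers (-1.31, SE 0.46, adjusted p = 0.297). The 9cRA arrays fell into a high pair, arrays 1 and 4, and a low pair. Arrays 1 and 4 were also the higher 9cRA pair for the called probe sets of Csad, Cyp3a23-3a1, Ephx1 and Asl. They were not for those of Pex14, Acsm2 and Dact2 or for M57705_g_at. Cyp27a1, a sterol hydroxylase of the same synthesis, was at -0.45 (SE 0.16, adjusted p = 0.294).

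Genes of retinoid handling did not pass between the agents in liver. Of 32 enzymes and binding proteins listed, 14 were measured and 10 passed the filter on low signal. The median of these 10 was 0.05 and the range -1.59 to 0.62. Cyp26b1, which breaks down retinoic acid, read 233.9, 79.2, 385.6 and 86.7 in 9cRA livers, against 810.6, 469.9, 559.3 and 502.1 in 4HPR livers, with diet arrays of 27.5 to 130.4. The groups did not overlap, and the 2 low 9cRA arrays lay inside the diet range. The difference between the agents was -1.59 (SE 0.41, adjusted p = 0.158). Against diet it was at 0.90 for 9cRA (SE 0.41, adjusted p = 0.241) and 2.49 for 4HPR (SE 0.41, adjusted p = 0.00437). Rdh16, a retinol dehydrogenase, averaged 533.5 ± 137.4 in 9cRA livers and 332.3 ± 80.7 in 4HPR livers (0.62, SE 0.26, adjusted p = 0.357). Adh7, an alcohol dehydrogenase that oxidises retinol, averaged 1062.8 ± 142.7 in 9cRA livers and 744.4 ± 252.4 in 4HPR livers (0.55, SE 0.23, adjusted p = 0.359). Rdh7, a retinol dehydrogenase, was at -0.34 (SE 0.16, adjusted p = 0.428) and Aldh1a1, which makes retinoic acid from retinal, at -0.36 (SE 0.20, adjusted p = 0.512).

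The 20 retinoid and partner nuclear receptors ranged from -0.62 to 0.39, with a median of -0.08, and none reached an unadjusted p under 0.05. Rara, retinoic acid receptor alpha, averaged 5746.6 ± 1688.2 in 9cRA livers and 4599.1 ± 1294.1 in 4HPR livers (0.33, 95% interval -0.13 to 0.79, adjusted p = 0.578). Thra, a thyroid hormone receptor, was at -0.62 (95% interval -1.25 to 0.01, adjusted p = 0.436).

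**Figure D4:**
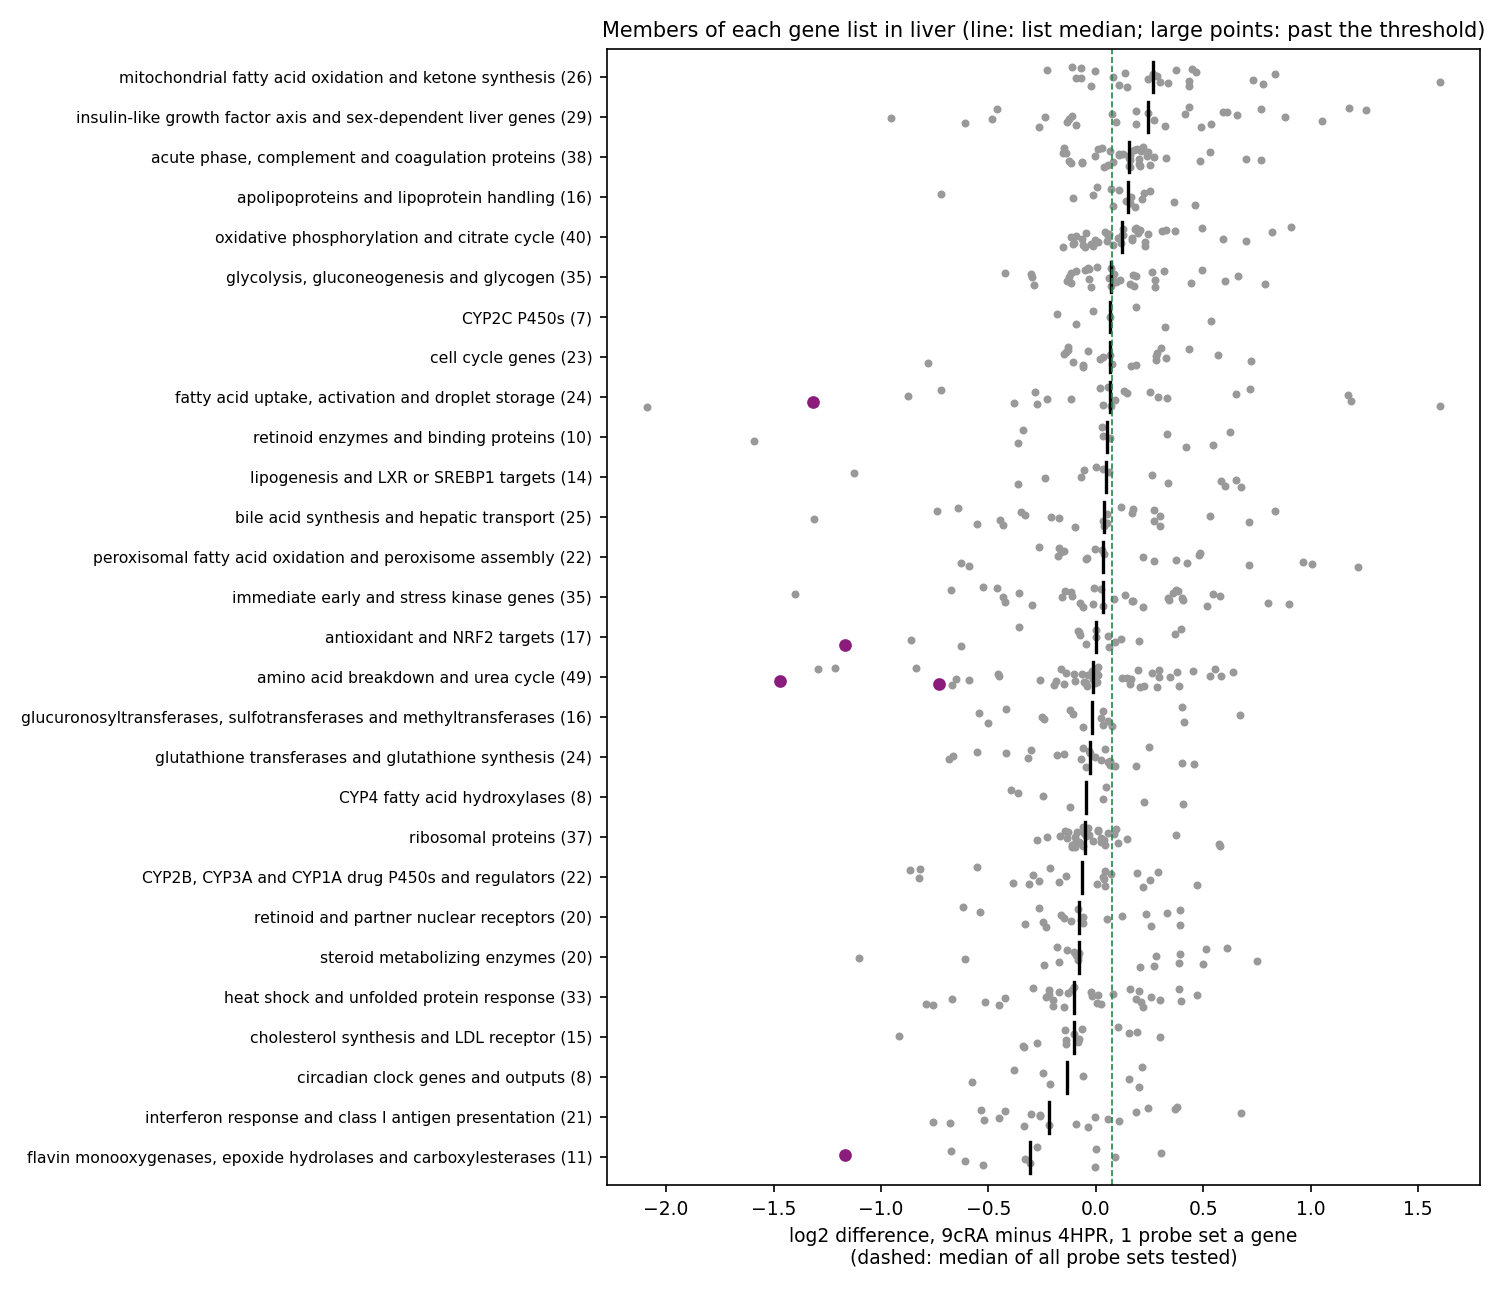
Log2 difference of 9cRA minus 4HPR for the members of 28 pathway lists, 1 point a gene, with a bar at each list's median, the number of genes tested in brackets and the median of all probe sets dashed. Large points passed the threshold; medians run from -0.31 (flavin monooxygenases, epoxide hydrolases and carboxylesterases) to 0.27 (mitochondrial fatty acid oxidation).

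Growth factor, steroid and plasma protein genes gave no calls. Among 29 genes of the insulin-like growth factor axis and of sex-dependent liver expression, the median was 0.24, or 0.14 after quantile normalization; it was 0.07 without 4HPR array 4 and 0.36 without 9cRA array 3. Igfbp2, a binding protein of these growth factors, read 2831, 3411.9, 3236.1 and 2920.6 in 9cRA livers, against 1560, 1719, 2003.3 and 1422.3 in 4HPR livers (0.88, SE 0.23, adjusted p = 0.158). The groups did not overlap, and both agents passed against diet, 9cRA at 1.82 (SE 0.23, adjusted p = 0.000304) and 4HPR at 0.94 (SE 0.23, adjusted p = 0.0344). Ghr, the growth hormone receptor, was at -0.61 (SE 0.21, adjusted p = 0.294). Of 20 steroid-metabolizing enzymes, Hsd11b1, which activates glucocorticoids, averaged 1997.2 ± 311.3 in 9cRA livers and 4444.8 ± 1312.0 in 4HPR livers (-1.10, SE 0.29, adjusted p = 0.161). Its 9cRA value against diet was 0.32 (adjusted p = 0.615) and its 4HPR value 1.42 (adjusted p = 0.0124). The 38 acute phase, complement and coagulation genes had a median of 0.16, or 0.07 after quantile normalization, 0.07 without 4HPR array 4 and 0.10 without 9cRA array 4; Fgb, a fibrinogen chain, was at 0.33 (SE 0.14, adjusted p = 0.357) and Apcs, serum amyloid P, at 0.25 (SE 0.11, adjusted p = 0.39).

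Beyond Csad and Asl, 47 of the 49 amino acid genes did not pass. Tat, tyrosine aminotransferase, averaged 8335.0 ± 3721.5 in 9cRA livers, 13976.2 ± 1727.8 in 4HPR livers and 21463.3 ± 2479.4 in diet livers (-0.84, SE 0.27, adjusted p = 0.249 between the agents). Against diet it passed for 9cRA (-1.46, adjusted p = 0.00476) and was at -0.62 for 4HPR (adjusted p = 0.229). Of 40 oxidative phosphorylation and citrate cycle genes none passed, with a median of 0.12. Ndufs1, of respiratory complex I, was at 0.82 (SE 0.25, adjusted p = 0.227) and Uqcrc2, of complex III, at 0.49 (SE 0.18, adjusted p = 0.319). Of 35 immediate early and stress genes none passed. Klf6, a zinc finger transcription factor, read 149.7, 147.6, 218.4 and 274.4 in 9cRA livers, against 435.2, 555.8, 654.6 and 658.3 in 4HPR livers (-1.40, SE 0.29, adjusted p = 0.07). Its groups did not overlap, and it passed without 9cRA array 4 (adjusted p = 0.0461) or Targretin array 3 (0.0307). Zfp36l1, which promotes mRNA decay, was at -0.53 (SE 0.20, adjusted p = 0.336).

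The tissue label was checked against markers. Summed signal of 13 hepatocyte markers, led by albumin, was 715850.1 to 876226.7 in 9cRA livers, 543203 to 854843 in 4HPR livers and 563524.1 to 671223.3 in diet livers. None of the 12 marker lists held a member past the threshold. Their members that passed the filter on low signal held no zero on a liver array, and the other members were not checked for zeros. Only 3 values of the whole table were zero, so the lack of zeros cannot tell which tissue is present. In bulk tissue, fewer cells of a type and less RNA per cell cannot be told apart. The 6 lung epithelial markers that passed the filter on low signal had a median difference of 1.46. Summed over all 7 measured, the signal was 2342.7 to 11123.8 in 9cRA livers, 1321.2 to 2153.7 in 4HPR livers and 1547.5 to 3090.5 in diet livers. Sftpc, surfactant protein C, read 6138.8, 1298, 347.4 and 499.1 in 9cRA livers, against 197.6, 131.8, 237.7 and 314.2 in 4HPR livers (2.19, SE 0.82, adjusted p = 0.327). The groups did not overlap, with 9cRA array 1 far above the others. Sftpd, surfactant protein D, averaged 350.4 ± 88.6 in 9cRA livers and 122.4 ± 54.3 in 4HPR livers (1.30, SE 0.41, adjusted p = 0.248). The 5 erythrocyte markers had a median of 0.42 and sums of 62060.8 to 74505 in 9cRA livers, 35744.2 to 114718.3 in 4HPR livers and 56905 to 101605 in diet livers. Of 7 cholangiocyte markers tested, 2 were lower with 9cRA without overlap and 0 higher, beside 2.11% and 4.07% of all probe sets. Their median was -0.05. Summed over all 9 measured, the signal was 17481.2 to 19097.8 in 9cRA livers, 19530.3 to 30255.7 in 4HPR livers and 16228.9 to 19766.1 in diet livers. Of 7 pancreatic acinar markers that passed the filter on low signal, 4 were above 0 and 3 below, with a median of 0.16. Summed over all 13 measured, the signal was 8487.1 to 11521.2 in 9cRA livers, 7814.7 to 18819.5 in 4HPR livers and 8605.5 to 17220.8 in diet livers. Cpa1, carboxypeptidase A1, had the difference farthest from 0 among the 7 (-1.29, SE 0.54, adjusted p = 0.363). It read 3433.2, 5442.2, 2858.8 and 1240 in 9cRA livers, against 13450.9, 1787.1, 7639.4 and 13359.6 in 4HPR livers.

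One library stood apart: 4HPR array 4 had the lowest median signal (266.8, beside 319.6 to 390.6 on the other liver arrays) and a median correlation of 0.933 with its group, beside 0.965 for each of the other 4HPR arrays. Without it, 10 probe sets passed, 7 of which were among those called with it. With 9cRA array 1 and 4HPR array 4 both left out, 6 passed, of which 5 were among the 10, and the median difference over all probe sets was 0.026. Csad, Cyp3a23-3a1 and Pex14 were among them through M64755_at, D13912_s_at and AB017544_g_at. The part of these libraries and of other tissues' RNA in the remaining differences was not tested.

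**Figure D5:**
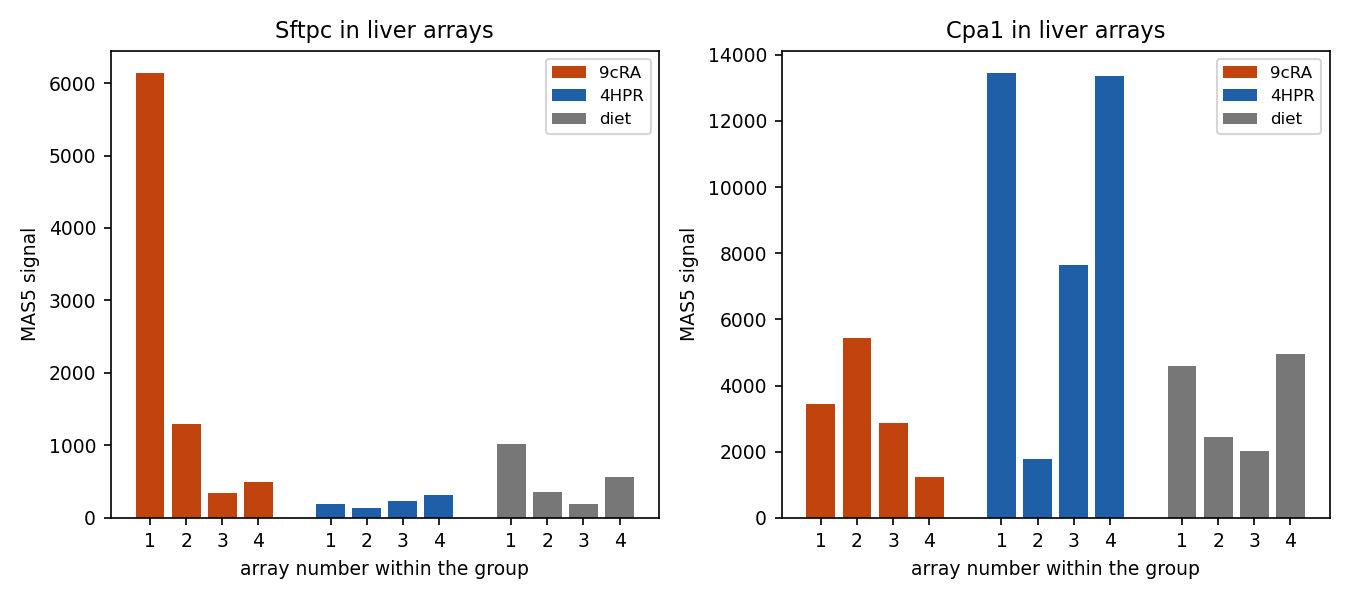
MAS5 signal of the lung epithelial marker Sftpc (left) and of Cpa1 (right), the pancreatic acinar marker with the difference farthest from 0, on each liver array of the 9cRA, 4HPR and diet groups; bars start at 0. Sftpc reached 6138.8 on 9cRA array 1 and at most 314.2 on 4HPR arrays, and Cpa1 ranged from 1787.1 to 13450.9 within the 4HPR arrays. The median difference of the 7 acinar markers tested was 0.16.

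The same contrast was measured in lung and mammary gland, with 4 arrays of each agent per organ except 3 for 4HPR mammary gland. In a fit of all 43 arrays, 28 of the 6071 probe sets passed between 9cRA and 4HPR in lung (0.461%) and 26 in mammary gland (0.428%). The difference between the agents itself differed between liver and lung for 4 probe sets (0.0659%) and between liver and mammary gland for 6 (0.0988%). The count against lung was 1 without 9cRA liver array 3 and 2 without 4HPR liver array 3, 9cRA lung array 1 or 4HPR lung array 4, and that against mammary gland was 2 without 4HPR mammary gland array 3. Csad supplied 2 in each case. For M64755_at, 9cRA and 4HPR signals were 526.5 ± 151.6 and 735.2 ± 141.0 in lung (SD, n = 4 each), and 3695.5 ± 1286.8 (SD, n = 4) and 3289.2 ± 1092.1 (SD, n = 3) in mammary gland. The agents' difference there was -0.48 (SE 0.28, adjusted p = 0.608) in lung and 0.15 (SE 0.31, adjusted p = 0.887) in mammary gland. Liver minus lung was -2.37 (SE 0.40, adjusted p = 0.00515) and liver minus mammary gland -2.99 (SE 0.42, adjusted p = 9.81e-05). Both held without any single array, and the first was lost in the fit of 9cRA and 4HPR arrays alone (adjusted p = 0.0684). For E13557cds_s_at these values were -1.78 (SE 0.35, adjusted p = 0.0276) and -2.02 (SE 0.37, adjusted p = 0.00643). The first was lost without 9cRA liver array 2 or 3, 4HPR liver array 1, 3 or 4, 9cRA lung array 1 or 4 or 4HPR lung array 1 or 4 (adjusted p between 0.0556 and 0.0968) and in the fit of only 9cRA and 4HPR arrays (0.102), and the second without 4HPR mammary gland array 3 (0.0607).

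The remaining organ differences came mostly from the other organ. Lcat, which esterifies cholesterol in plasma, was at 0.22 (SE 0.16, adjusted p = 0.615) in liver and -2.47 (SE 0.36, adjusted p = 0.000276) in lung, a liver minus lung difference of 2.69 (SE 0.51, adjusted p = 0.0178) that was lost without 9cRA liver array 3 (0.0738) and in the fit of only 9cRA and 4HPR arrays (0.102). Csn3, the milk protein kappa-casein, read 4351.3, 447.8, 982.7 and 713 in 9cRA lungs, against 88.7 to 141.2 in 4HPR lungs. Its liver minus lung value of -3.05 (SE 0.62, adjusted p = 0.0306) was lost in 12 of 37 alternatives, among them those without 4HPR liver array 4 (-2.71, adjusted p = 0.115) or 9cRA lung array 1 (-2.39, adjusted p = 0.0968), and 9cRA liver arrays 1 to 4, 4HPR liver array 3 and 4HPR lung arrays 2 and 4 also ended it (adjusted p between 0.0505 and 0.0892). Pacsin2, a membrane-bending protein of endocytosis, averaged 176.3 ± 37.1 in 9cRA livers and 382.3 ± 138.7 in 4HPR livers, against 446.4 ± 166.2 in 9cRA mammary glands and 103.4 ± 21.4 in 4HPR mammary glands. The liver minus mammary gland difference was -2.63 (SE 0.38, adjusted p = 9.81e-05) and held in all 37 alternatives. Tnfrsf21, a death receptor, was at 0.52 (SE 0.18, adjusted p = 0.297) in liver and -0.83 (SE 0.19, adjusted p = 0.0285) in mammary gland, a difference of 1.34 (SE 0.25, adjusted p = 0.00789) that was lost without 4HPR mammary gland array 3 (0.0675).

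Slc3a2, the heavy chain of amino acid transporters, read 1586.9, 941.5, 1597 and 1659 in 9cRA livers, against 2746.7, 2698.4, 3209.7 and 2146.5 in 4HPR livers (-0.90, SE 0.21, adjusted p = 0.113). In mammary gland it was at 0.54 (SE 0.22, adjusted p = 0.311), and liver minus mammary gland was -1.44 (SE 0.30, adjusted p = 0.0273). That call was lost without 9cRA liver array 2 (-1.25, adjusted p = 0.094), 4HPR liver array 1 or 3, 9cRA mammary gland array 1 or 4, or any 4HPR mammary gland array (adjusted p between 0.0528 and 0.117). Sftpd differed between liver and mammary gland by 3.12 (SE 0.63, adjusted p = 0.0213), from 1.30 in liver and -1.81 in mammary gland, where 9cRA glands read 24 to 253.3 and 4HPR glands 439.6 to 631.7. It was lost without 9cRA liver array 1 (0.055), 4HPR liver array 4 (0.0533), 9cRA mammary gland array 2 (0.0827) or any 4HPR mammary gland array (0.0607 to 0.0907). M57705_g_at, called in liver, was also higher with 9cRA in lung (1.32, SE 0.32, adjusted p = 0.0465). In mammary gland it was at 0.70 (SE 0.35, adjusted p = 0.383). Its liver minus lung value of -0.14 (SE 0.45) did not pass. Nor did its liver minus mammary gland value of 0.49 (SE 0.47, adjusted p = 0.922). Dact2, called in liver, was at -0.50 (SE 0.27, adjusted p = 0.537) in lung and -0.49 (SE 0.29, adjusted p = 0.495) in mammary gland. Its organ differences of -1.62 (SE 0.38, adjusted p = 0.102) and -1.64 (SE 0.39, adjusted p = 0.118) did not pass, but the call appeared for both without 4HPR liver array 2 (-1.84, adjusted p = 0.0281 and -1.85, adjusted p = 0.0417), for lung without diet liver array 4 (adjusted p = 0.0491) and for mammary gland without 9cRA mammary gland array 3 (-1.82, adjusted p = 0.0369) or with array weights (-1.60, adjusted p = 0.0491).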

How the data were processed

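RNA of liver, lung and mammary gland was measured on Affymetrix rat arrays, 1 array a sample. The authors deposited linear intensities, made with MAS5 per the submitters' processing notes. The 2% trimmed mean lay between 1499.9 and 1500.0 on every array, so the deposited values had been scaled globally. How many arrays a group has limits how precise its mean is. Detection calls were not used here.

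The table lists 8799 probe sets, 59 of them manufacturer's controls, which did not enter. For the 8740 kept, the platform annotation gave 1 gene for 7006, several for 308 and none for 1426; 6985 were found in the RefSeq table by Entrez ID, which changed 0 symbols, for 4736 distinct genes.

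Log2(signal + 38.1), the pseudocount being the 10th percentile of all deposited values, was fitted with limma 3.58.1 in R 4.3.3 (lmFit, eBayes with trend) over all 15 liver arrays in 4 groups. Probe sets above their array's 40th percentile on at least 3 liver arrays were tested, which gave 6071, with Benjamini-Hochberg adjustment over all of them. Organ differences came from a fit of all 43 arrays. The procedure was tested on simulated data. Alternatives were quantile normalization, no filter, a pseudocount 4 times larger, the replicate number as a block, array weights, only the compared groups, no variance trend, and leaving out each array; leaving out 9cRA array 1 with 4HPR array 4, and lung and mammary gland arrays, was added after seeing the data. The members and lists were chosen with earlier results of these data known. Named genes have 1 gene symbol and were the largest passing differences without overlap (filled to 5 by smallest p), up to 4 passing or 2 not passing members of each list, retinoid genes, and the 8 smallest p-values between organs. M57705_g_at is an exception. Promoters were matched by symbol to the RefSeq table, and the motifs were likewise chosen with results known.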

Additional observations from a re-analysis of the deposited data

Results flagged for a closer look

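Among the 62 probe sets named, each group of 4 liver arrays (186 in all) was checked for an array far from the other 3 by Dixon's test, and 10 arrays stood apart. For independent groups of normally distributed values, chance would flag about 1 in 20. The named probe sets were selected and share the same arrays, so whether chance alone gives this number was not tested. In 9cRA livers, array 4 read 3380.1 for Fmo1 (others 4527.1 to 4745.4) and array 2 read 941.5 for Slc3a2 (others 1586.9 to 1659). In 4HPR livers, array 4 read 38123.9 for Ephx1 (others 29878.4 to 30617.6) and 1764 for Abcd3 (others 10684 to 15127.2), array 2 read 6820.4 for Kynu (others 5047.1 to 5262.9), and array 1 read 25822.6 for Apcs (others 21804.3 to 22292.7). In diet livers, array 1 read 8955.7 for Sult1b1 (others 11956.2 to 12455.8) and 8697.5 for Ugt2b1 (others 11868.8 to 12549.3), and array 2 read 308.7 for Sftpd (others 59.9 to 80.5) and 327.2 for Csn3 (others 135.2 to 147.8).

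In 10 cases the difference between 9cRA and 4HPR itself differed between liver and another organ in limma. Liver minus lung was -2.37 for Csad M64755_at, -1.78 for Csad E13557cds_s_at, 2.69 for Lcat and -3.05 for Csn3. Liver minus mammary gland was -2.99 for Csad M64755_at, -2.02 for Csad E13557cds_s_at, 3.12 for Sftpd, -1.44 for Slc3a2, -2.63 for Pacsin2 and 1.34 for Tnfrsf21.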

How the results depend on the processing

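With 4 arrays a group, only large or steady differences could pass. The count of 10 probe sets was 6 with the replicate number as a block, 22 with array weights and 6 with only 9cRA and 4HPR arrays in the fit, of which 3 were among the 10; it ranged from 3 (without 9cRA array 2) to 18 (without 9cRA array 4), with 4 without 4HPR array 3, and was 6 without 9cRA array 1 and 4HPR array 4. The count higher with 9cRA (1) was 0 after quantile normalization, with the block and without those 2 arrays, 5 with array weights and 3 without a variance trend, and 0 to 3 without single arrays. The count lower with 9cRA (9) was 17 with array weights and 5 with only the compared arrays, and 3 to 15 without single arrays. List genes called (4) were 1 with the block, 9 with array weights, 1 with only the compared arrays, 2 without a variance trend, 2 without those 2 arrays, and 0 to 7 without single arrays. Probe sets differing between liver and lung (4) were 15 with array weights, 0 with only 9cRA and 4HPR arrays, and 1 to 6 without single arrays; those between liver and mammary gland (6) were 21 with array weights and 2 to 8 without single arrays.

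Arrays of the same number in different groups did not deviate together (median correlation of deviations -0.002 over 21 pairs, 0 above 0.1), so they were not paired. With the block, Acsm2 (adjusted p = 0.0607), Asl D13978_s_at (0.0861), Csad E13557cds_s_at (0.0653), M57705_g_at (0.0607) and the liver minus lung value of Csn3 (0.0553) did not pass in limma. Values near 0 changed sign. Pex14 AB017544_at was -0.0182 with array weights, -0.0704 and -0.0422 without 9cRA array 1 or 4, -0.0050 and -0.0192 without 4HPR array 3 or 4, and -0.1289 without 9cRA array 1 and 4HPR array 4, and reached 0.1512 without 9cRA array 2. Csn3 in liver was 0.0329 with array weights, 0.1630 without 4HPR array 4 and 0.1301 without 9cRA array 1 and 4HPR array 4, and -0.3662 without 4HPR array 1, and its liver minus mammary gland value was 0.0046 with array weights. Lcat, liver minus mammary gland, was -0.2785 without 9cRA mammary gland array 2 and -0.0113 without 4HPR mammary gland array 2, and reached 0.6755 without 4HPR mammary gland array 3. Over single genes and lists, 2332 recomputed values counted as the same, 104 lost a call, 20 gained one, 12 changed sign and 8 moved. For a gene, the same meant that direction and side of the threshold were kept. For a list median, it meant a shift smaller than the spread between arrays of a group, whatever the sign. The 12 were values of single genes, and sign changes of list medians were not counted there. The cause of these changes was not tested.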
